A study of Bos taurus with 32 samples.

Results

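The liver of dairy cows was followed across calving through 85 genes that encode subunits of the oxidative phosphorylation machinery or carry their family names. Members were all genes with a probe set whose annotated symbol starts with NDUF, UQCR, COX4 to COX8 or ATP5, or is CYC1 or SDHA to SDHD. This took 110 probe sets, and each gene was read from its brightest one, so that 85 of the 9155 genes with a single symbol were members. By complex there were 36 genes of complex I, 4 of complex II, 9 of complex III, 15 listed with complex IV, 17 of complex V and 4 assembly factors of complex I whose symbols start with NDUFAF. NDUFA4, NDUFA4L2 and COX7A2L were placed with complex IV and the inhibitor ATP5IF1 with complex V. The arrays came from 12 Ayrshire cows. During the 6 weeks that led up to the predicted date of calving 6 of them received a diet of controlled energy (CON) and 6 a diet of high energy (HIGH). Liver was taken by biopsy 8 d ahead of that date (called -8 d) and again 1 d and then 9 d past the real calving. The groups held 5 CON and 5 HIGH arrays at -8 d, 4 CON and 6 HIGH at 1 d, and 6 of each diet at 9 d, and 8 cows (3 CON, 5 HIGH) had all 3 days. Each array held the RNA of a single cow on a single day, and the series' text names 16 cows, of which 12 were analysed here. What the cows were fed after calving is not given in the sources used here.

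Oxidative phosphorylation couples the oxidation of fuel to the making of ATP in the inner mitochondrial membrane. Complexes I and II pass electrons from NADH and succinate to coenzyme Q, complex III passes them on to cytochrome c, complex IV reduces oxygen, and complex V uses the proton gradient that complexes I, III and IV build to make ATP. Around calving the liver of a dairy cow takes up fatty acids from body fat and makes glucose for milk. The oxidation of these fatty acids and the making of glucose depend on this machinery.

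All levels are log2 values made with RMA from Affymetrix arrays, and all changes are log2 fold changes. They were tested for 24016 probe sets, with array medians between 5.87 and 5.94 and correlations between arrays of 0.981 to 0.994. Markers of hepatocytes, the main cell of liver, averaged between 13.3 and 13.6 on every array over 14 measured genes. The array of CON at 9 d replicate 6 stood apart by markers of skeletal muscle: 7 of 9 measured markers were above all 31 other arrays, such as ACTA1 at 9.31 (others 3.4 to 5.45) and MYL1 at 9.82 (others 3.43 to 5.08). HIGH at 9 d replicate 2 was next, with ACTA1 at 5.45 (the remaining 30 arrays 3.4 to 3.91). Counts at 9 d are therefore also given without each of these arrays. Neutrophil markers moved with the day: their mean over 6 genes was 5.79 in CON and 6.10 in HIGH at -8 d, 6.86 and 7.21 at 1 d, and 6.38 and 6.41 at 9 d, with 4 of 6 higher at 1 d than at -8 d. In the same comparison 5 of 14 T and NK cell markers fell, and 8 of 14 hepatocyte markers fell and 3 rose. Among all genes 16.5% rose and 12.3% fell between these days, by the test described below. The difference between the 3′ and 5′ probe sets of the control EF1a was -0.684 ± 0.119 at -8 d (SD, n = 10). It was -1.07 ± 0.154 at 1 d (n = 10) and -0.81 ± 0.134 at 9 d (n = 12). The mean difference of GST went from 0.682 before calving to 0.505 at 1 d and 0.637 at 9 d. That of eIF-4E was 2.78, 2.60 and 2.64 in the same order. GAPDH stayed between means of 0.534 and 0.579 and cyclophilin between 1.19 and 1.25. Actin had an SD of 0.698 at 9 d. Its highest array there was at 3.87, against 2.20 at -8 d and 1.92 at 1 d. The part of these shifts in the changes below was not tested, and in bulk liver fewer cells of a type and less RNA per cell cannot be told apart.

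From -8 d to 1 d, 39 of the 85 genes rose and 2 fell (mean of the diets, limma with Benjamini-Hochberg adjustment over all probe sets, adjusted p under 0.05). Over all 9155 genes 16.5% rose and 12.3% fell. With the 8 cows sampled on all 3 days alone 26 rose and 2 fell. The median log2 fold change of the members was 0.14, beside 0.00 over all genes, and 70 of the 85 estimates were above 0. By complex, 18 of 36 genes of complex I, 5 of 9 of complex III, 7 of 15 of complex IV and 9 of 17 of complex V rose. Of the 4 genes of complex II none rose and SDHC fell. None of the 4 NDUFAF assembly factors passed. ATP5MC2, 1 of 3 genes for the c-ring of complex V, was the other gene that fell. The changes were small, from -0.27 to 0.69 on the log2 scale, with a median standard error (SE) of 0.05, beside 0.069 over all genes. The members were also brighter than most probe sets, with a median level of 11.32 beside 5.9 over all probe sets. Brighter and more precisely measured genes can pass more readily, so shares over all genes are not a like-for-like yardstick here or below. A comparison with genes of similar level was not run.

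**Figure D1:**
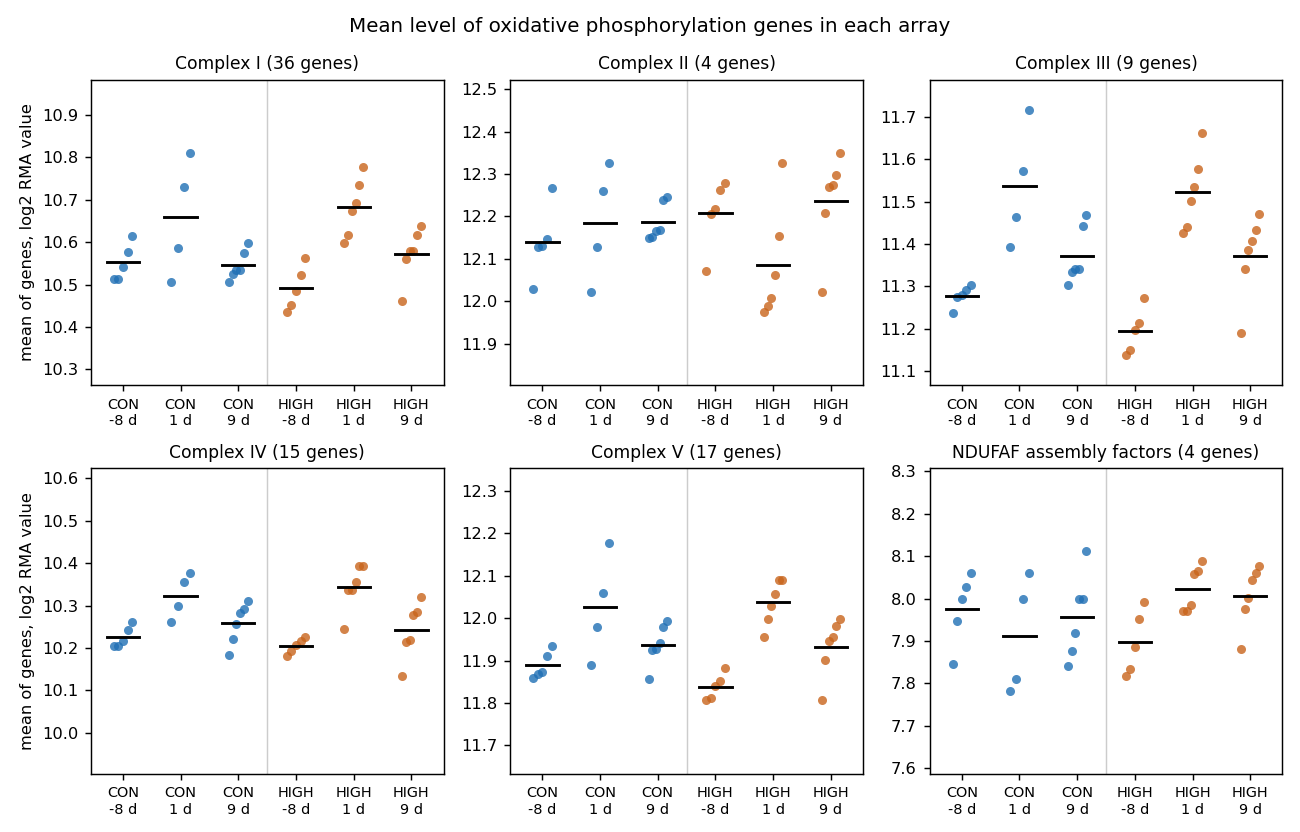
Mean log2 RMA value over the genes of each complex in every array, by diet and day; points are arrays and bars are group means, and every panel spans the same log2 range. Complexes I, III, IV and V sit higher at 1 d than at -8 d in both diets, by group means, whereas complex II goes from 12.14 to 12.18 in CON, and in HIGH from 12.21 to 12.09. Levels of different panels are not comparable.

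The mean over the genes of complex III was 11.28 ± 0.02 in CON and 11.19 ± 0.05 in HIGH at -8 d (SD, n = 5 each), 11.54 ± 0.14 (n = 4) and 11.52 ± 0.09 (n = 6) at 1 d, and 11.37 ± 0.07 and 11.37 ± 0.10 (n = 6 each) at 9 d. All 8 cows with both days had a higher mean at 1 d than at -8 d, by 0.09 to 0.52. For complex V the means were 11.89 ± 0.03 and 11.84 ± 0.03 at -8 d, 12.03 ± 0.12 and 12.04 ± 0.05 at 1 d, and 11.94 ± 0.05 and 11.93 ± 0.07 at 9 d in CON and HIGH, also higher at 1 d in 8 of 8 cows. Complexes III and V were thus highest at 1 d and stood at 9 d between the other days. The mean of complex IV went up in 8 of 8 cows by 0.04 to 0.20, and that of complex I in 7 of 8 by up to 0.33. That of complex II went up in 2 of 8 cows.

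**Figure D2:**
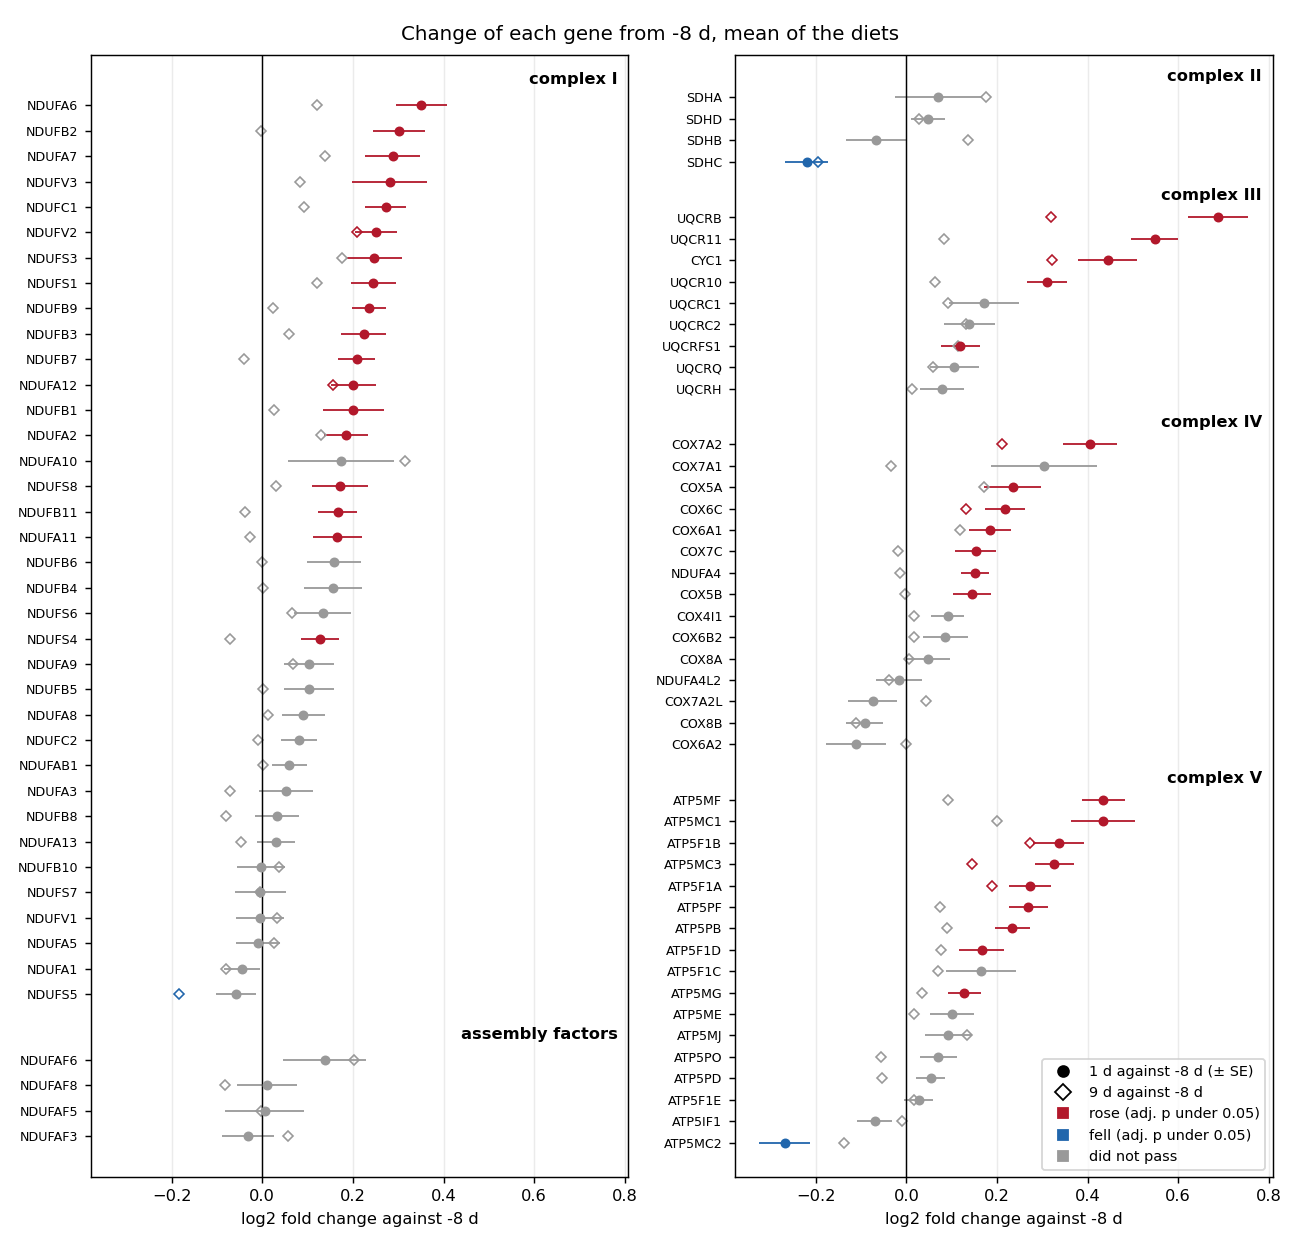
Log2 fold change of each gene from -8 d to 1 d (filled circles, ± SE) and from -8 d to 9 d (open diamonds, SE not drawn), as the mean of the diets, by complex. Red marks genes that rose and blue genes that fell at an adjusted p under 0.05; at 1 d 39 of 85 are red and 2 blue, at 9 d 9 are red and 2 blue.

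At 9 d, 9 genes were above their -8 d level and 2 were below (median log2 fold change 0.03, beside -0.01 over all genes), where 7.79% of all genes rose and 5.08% fell. The genes that rose were CYC1, UQCRB, ATP5F1B, COX7A2, NDUFV2, ATP5F1A, NDUFA12, ATP5MC3 and COX6C, and those that fell were SDHC and NDUFS5. Centring each array on its brightest probe sets gave 6 that rose and 3 that fell. With the 8 cows sampled on all 3 days alone 5 rose and 1 fell. The calls of COX7A2, NDUFS5, ATP5MC3 and COX6C were lost there (adjusted p = 0.0926, 0.13, 0.0715 and 0.113), and those of ATP5F1A and COX6C with the mean of each gene's probe sets (adjusted p = 0.541 and 0.826). NDUFA12 was not followed by itself through these settings. Without the array rich in muscle markers 10 rose and 2 fell, and without HIGH at 9 d replicate 2 or CON at 1 d replicate 1 14 rose. Without CON at 9 d replicate 2, 4 fell. From 1 d to 9 d, 25 genes fell and 1 rose, SDHB, with a median of -0.09 beside -0.01 over all genes, of which 10% fell and 7.44% rose. Without the muscle-rich array, and likewise without HIGH at 9 d replicate 2, 23 fell and 1 rose, and with the 3-day cows alone 10 fell and 0 rose. These 3 comparisons share arrays, so that a high 1 d array raises one and lowers another, and their values are given side by side only.

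Complex I oxidises NADH. Of its 6 measured core genes, the part of the enzyme that holds its flavin and iron-sulphur clusters, 4 rose from -8 d to 1 d and 2 did not pass. NDUFV2, a subunit of the NADH-binding module with an iron-sulphur cluster, rose by 0.25 (SE 0.05, adjusted p = 0.000193), NDUFS3 by 0.25 (SE 0.06, adjusted p = 0.00352), NDUFS1, the largest subunit, by 0.24 (SE 0.05, adjusted p = 0.000449) and NDUFS8 by 0.17 (SE 0.06, adjusted p = 0.043). NDUFV1, the subunit that binds NADH and flavin, was at -0.01 (SE 0.05) and NDUFS7 at -0.004 (SE 0.06), with adjusted p of 0.957 and 0.971. The call of NDUFS8 was lost without any 1 of 12 arrays: CON at -8 d replicates 1, 2, 4 and 5, HIGH at -8 d replicates 1, 3 and 4, CON at 1 d replicates 3 and 4, and HIGH at 1 d replicates 2, 4 and 5 (adjusted p up to 0.131). It was also lost with cow as a fixed block (adjusted p = 0.123) and with the 3-day cows alone (adjusted p = 0.206). Both rescalings of the arrays lost it too (adjusted p = 0.135 and 0.154). Between 1 d and 9 d none of the 6 core genes fell past the threshold, whereas 10 of the 30 accessory genes did. Without CON at 1 d replicate 1, NDUFS8 and NDUFS1 passed (adjusted p = 0.0268 and 0.0039). The difference between these groups of genes was not tested.

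NDUFV2 was at 11.27, 11.29, 11.31, 11.45 and 11.49 in the CON arrays at -8 d and at 11.17, 11.27, 11.29, 11.37 and 11.42 in the HIGH arrays. At 1 d NDUFV2 was at 11.44, 11.47, 11.60 and 11.84 in CON and ran from 11.49 to 11.73 (median 11.55) in HIGH. At 9 d NDUFV2 ran from 11.40 to 11.58 (median 11.55) in CON while the HIGH arrays ran from 11.43 to 11.66 (median 11.54). All 6 HIGH arrays at 1 d and all 6 at 9 d were above the 5 HIGH arrays at -8 d, whereas the CON groups overlapped. NDUFV2 stood 0.21 above -8 d at 9 d (SE 0.04, adjusted p = 0.00206), in 10 of 10 cows with both days. Values of NDUFS1 at -8 d were 10.15, 10.16, 10.16, 10.22 and 10.32 in CON and 10.14, 10.15, 10.18, 10.19 and 10.25 in HIGH. The NDUFS1 values at 1 d were 10.14, 10.43, 10.50 and 10.72 in CON, against a range from 10.34 to 10.53 (median 10.45) in HIGH. By 9 d NDUFS1 ranged from 10.16 to 10.51 (median 10.31) in CON, and in HIGH from 10.24 to 10.35 (median 10.30). In HIGH the 1 d arrays lay above the -8 d arrays without overlap, and in CON 1 of the 4 arrays at 1 d lay at the -8 d level. NDUFS1 stood 0.12 above -8 d at 9 d (SE 0.05, adjusted p = 0.101), and 0.12 below 1 d (adjusted p = 0.0785), and both passed without CON at 1 d replicate 1 (adjusted p = 0.0387 and 0.0039).

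Accessory subunits, which surround the core and are needed for its assembly and stability, rose in 14 of 30 cases at 1 d. The smallest p of them was that of NDUFA6, of the LYR motif family, at 0.35 (SE 0.06, adjusted p = 2.53e-05, a fold of 1.28). For NDUFA6 the CON arrays at -8 d read 11.24, 11.28, 11.28, 11.29 and 11.29 and the HIGH arrays 11.01, 11.12, 11.21, 11.25 and 11.28. In the 1 d arrays NDUFA6 read 11.35, 11.54, 11.55 and 11.76 in CON and spanned 11.36 to 11.81 (median 11.65) in HIGH. In the 9 d arrays NDUFA6 spanned 11.23 to 11.48 (median 11.32) in CON and 11.09 to 11.59 (median 11.43) in HIGH. All 4 CON and all 6 HIGH arrays at 1 d were above every -8 d array of their diet, and NDUFA6 was higher in 8 of 8 cows. It then fell by 0.23 between 1 d and 9 d (SE 0.05, adjusted p = 0.00308). NDUFB9 rose by 0.23 (SE 0.04, adjusted p = 3.59e-05) and NDUFC1 by 0.27 (SE 0.04, adjusted p = 4.09e-05), and both fell again, by 0.21 and 0.18, between 1 d and 9 d. NDUFB7 had the smallest p of complex I between 1 d and 9 d, at -0.25 (SE 0.04, adjusted p = 3.52e-05).

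NDUFS5, an accessory subunit that lies on the intermembrane-space side, went the other way by 9 d. NDUFS5 was at 11.37, 11.40, 11.47, 11.48 and 11.57 in the CON arrays at -8 d and at 11.30, 11.32, 11.38, 11.39 and 11.41 in the HIGH arrays. At 1 d NDUFS5 was at 11.20, 11.30, 11.36 and 11.39 in CON and ran from 11.18 to 11.59 (median 11.38) in HIGH. At 9 d NDUFS5 ran from 11.15 to 11.28 (median 11.22) in CON while the HIGH arrays ran from 11.13 to 11.38 (median 11.19). All 6 CON arrays at 9 d were below the 5 CON arrays at -8 d, while the HIGH groups overlapped. NDUFS5 was lower at 9 d than at -8 d by 0.18 (log2 fold change -0.18, SE 0.04, adjusted p = 0.00447), in 10 of 10 cows, and its change at 1 d was -0.06 (SE 0.04, adjusted p = 0.386).

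Complex II, or succinate dehydrogenase, is also an enzyme of the citric acid cycle and pumps no protons. Its 4 genes had a median change of -0.01 from -8 d to 1 d. SDHC, a membrane anchor of the complex, was the one that passed, at -0.22 (SE 0.05, adjusted p = 0.00104), and it stayed at -0.19 at 9 d (SE 0.04, adjusted p = 0.00493). Values of SDHC at -8 d were 12.57, 12.59, 12.63, 12.78 and 12.90 in CON and 12.60, 12.68, 12.77, 12.78 and 12.79 in HIGH. The SDHC values at 1 d were 12.25, 12.46, 12.57 and 12.59 in CON, against a range from 12.40 to 12.67 (median 12.51) in HIGH. By 9 d SDHC ranged from 12.38 to 12.62 (median 12.51) in CON, and in HIGH from 12.42 to 12.75 (median 12.51). The ranges of 1 d and 9 d began lower than that of -8 d and overlapped with it in both diets. SDHC was lower than at -8 d in 8 of 8 cows at 1 d and in 10 of 10 cows at 9 d. SDHD, the other anchor, was at 0.05 (SE 0.04, adjusted p = 0.393).

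SDHA, which holds the flavin and oxidises succinate, had an SE of 0.09 at 1 d, above the median of 0.05 over the members. For SDHA the CON arrays at -8 d read 11.41, 11.44, 11.48, 11.51 and 11.62 and the HIGH arrays 11.30, 11.57, 11.84, 11.88 and 11.90. In the 1 d arrays SDHA read 11.54, 11.66, 11.96 and 11.96 in CON and spanned 11.15 to 11.95 (median 11.64) in HIGH. In the 9 d arrays SDHA spanned 11.54 to 11.89 (median 11.69) in CON and 11.24 to 12.11 (median 11.94) in HIGH. The groups of the 3 days overlapped in both diets, and in HIGH at 9 d a single array at 11.24 lay below the other 5. SDHA changed by 0.07 at 1 d (SE 0.09, adjusted p = 0.645), with 3 of 3 CON cows and 1 of 5 HIGH cows higher. SDHB was at 11.69, 11.76, 11.78, 12.01 and 12.17 in the CON arrays at -8 d and at 11.70, 11.93, 11.96, 11.96 and 12.01 in the HIGH arrays. At 1 d SDHB was at 11.55, 11.96, 12 and 12.11 in CON and ran from 11.56 to 12.11 (median 11.73) in HIGH. At 9 d SDHB ran from 11.84 to 12.09 (median 12.01) in CON while the HIGH arrays ran from 11.90 to 12.19 (median 12.10). The groups overlapped, and 5 of the 6 HIGH arrays at 9 d were above 12, against 1 of the 6 at 1 d. SDHB, the iron-sulphur subunit, rose by 0.20 between 1 d and 9 d (SE 0.06, adjusted p = 0.0306) and was higher in 9 of 10 cows. This call was lost without any 1 of 6 arrays (adjusted p up to 0.119). They were CON at 1 d replicate 1, HIGH at 1 d replicates 1, 3 and 6, and CON at 9 d replicates 1 and 4. The call was also lost without the cow block (adjusted p = 0.0707), with the 3-day cows alone (adjusted p = 0.125) and with array quality weights (adjusted p = 0.059).

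Complex III held the 2 members with the smallest p at 1 d. UQCRB, a small subunit that binds near the quinone site, rose by 0.69 (SE 0.07, adjusted p = 1.1e-08), a fold of 1.61. Values of UQCRB at -8 d were 11.53, 11.58, 11.60, 11.70 and 11.70 in CON and 11.43, 11.44, 11.47, 11.49 and 11.57 in HIGH. The UQCRB values at 1 d were 11.94, 12.05, 12.32 and 12.40 in CON, against a range from 12.10 to 12.57 (median 12.30) in HIGH. By 9 d UQCRB ranged from 11.73 to 12.01 (median 11.87) in CON, and in HIGH from 11.49 to 12.07 (median 11.96). At 1 d every array lay above every -8 d array of its diet, and at 9 d all CON arrays and 5 of 6 HIGH arrays still did. All 8 cows with both days had more UQCRB at 1 d than at -8 d, by 0.24 to 1.1, as had all 10 cows at 9 d, with a change of 0.32 at 9 d (SE 0.06, adjusted p = 0.000814). It fell by 0.37 between 1 d and 9 d (SE 0.06, adjusted p = 0.000115).

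UQCR11, the smallest subunit of the complex, rose by 0.55 (SE 0.05, adjusted p = 1.02e-08), a fold of 1.46. For UQCR11 the CON arrays at -8 d read 11.82, 11.94, 11.94, 11.95 and 11.97 and the HIGH arrays 11.68, 11.69, 11.76, 11.84 and 11.94. In the 1 d arrays UQCR11 read 12.11, 12.38, 12.50 and 12.50 in CON and spanned 12.19 to 12.58 (median 12.46) in HIGH. In the 9 d arrays UQCR11 spanned 11.88 to 12.04 (median 11.93) in CON and 11.78 to 12.08 (median 11.97) in HIGH. The 1 d arrays of both diets stood clear of all other arrays of their diet, and the 9 d and -8 d arrays overlapped. Its change from -8 d to 9 d was 0.08 (SE 0.05, adjusted p = 0.33), and all 10 cows with both days had less of it at 9 d than at 1 d. UQCR10, which lies next to cytochrome c1, rose by 0.31 (SE 0.04, adjusted p = 4.3e-06). UQCR10 was at 11.69, 11.80, 11.85, 11.85 and 11.90 in the CON arrays at -8 d and at 11.65, 11.71, 11.73, 11.85 and 11.91 in the HIGH arrays. At 1 d UQCR10 was at 11.96, 11.99, 12.08 and 12.19 in CON and ran from 11.92 to 12.29 (median 12.19) in HIGH. At 9 d UQCR10 ran from 11.80 to 11.89 (median 11.85) in CON while the HIGH arrays ran from 11.67 to 11.95 (median 11.90). Again no 1 d array overlapped the -8 d arrays of its diet, and UQCR10 stood 0.06 above -8 d at 9 d (SE 0.04, adjusted p = 0.377).

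CYC1, which is cytochrome c1 and hands electrons to cytochrome c, rose by 0.44 at 1 d (SE 0.07, adjusted p = 8.56e-06) and stood at 0.32 at 9 d (SE 0.06, adjusted p = 0.000719). Values of CYC1 at -8 d were 10.36, 10.46, 10.48, 10.54 and 10.56 in CON and 10.28, 10.37, 10.46, 10.55 and 10.57 in HIGH. The CYC1 values at 1 d were 10.68, 10.88, 10.90 and 11.25 in CON, against a range from 10.79 to 11.10 (median 10.90) in HIGH. By 9 d CYC1 ranged from 10.60 to 11.01 (median 10.73) in CON, and in HIGH from 10.49 to 11.01 (median 10.86). All arrays at 1 d and, in CON, all at 9 d were above the -8 d arrays of their diet, and in HIGH 5 of 6 were at 9 d. Later, between 1 d and 9 d, CYC1 changed by -0.12 (SE 0.06, adjusted p = 0.214), so that UQCRB and CYC1 were above the -8 d level at 9 d while UQCR11 and UQCR10 did not pass. UQCRFS1, the Rieske iron-sulphur protein, rose by 0.12 (SE 0.04, adjusted p = 0.043). That call was lost without any 1 of 12 arrays (CON at -8 d replicates 1 to 4, HIGH at -8 d replicates 1, 3, 4 and 5, CON at 1 d replicates 3 and 4, HIGH at 1 d replicates 3 and 5, adjusted p up to 0.133), without the cow block (adjusted p = 0.0697) and with cow as a fixed block (adjusted p = 0.0566). The UQCRFS1 call was also lost with the 3-day cows alone (adjusted p = 0.215) and under both rescalings of the arrays (adjusted p = 0.191 and 0.101). UQCRC1, a core protein with a protease fold, was at 0.17 (SE 0.08, adjusted p = 0.108).

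**Figure D3:**
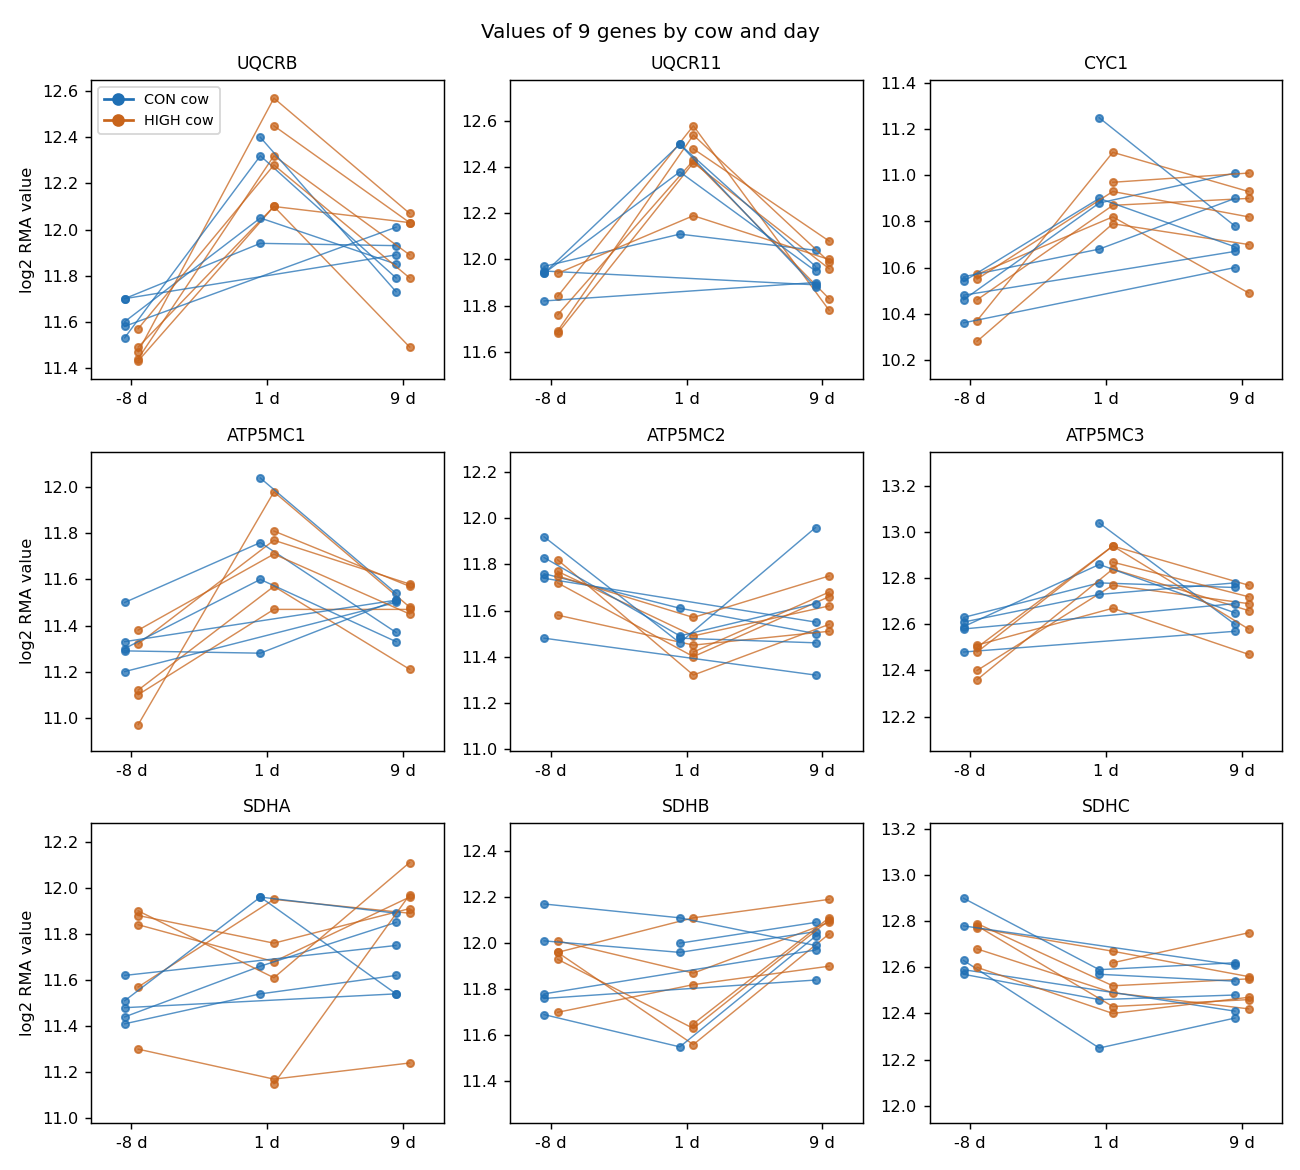
Log2 RMA values of 9 genes by day, with a line for each cow; blue is CON and orange is HIGH, and all panels span the same log2 range. The lines of UQCRB, UQCR11, CYC1 and ATP5MC3 go up from -8 d to 1 d in all 8 cows with both days, and those of ATP5MC2 and SDHC go down.

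Complex IV is known for pairs of subunits of which 1 form is typical of liver and the other of heart and skeletal muscle. The gene of this complex with the smallest p at 1 d was COX7A2, the liver form, which rose by 0.41 (SE 0.06, adjusted p = 7.96e-06), a fold of 1.32. For COX7A2 the CON arrays at -8 d read 11.77, 11.79, 11.84, 11.88 and 11.97 and the HIGH arrays 11.61, 11.69, 11.69, 11.71 and 11.77. In the 1 d arrays COX7A2 read 11.91, 12.11, 12.23 and 12.33 in CON and spanned 12 to 12.35 (median 12.27) in HIGH. In the 9 d arrays COX7A2 spanned 11.85 to 12.10 (median 11.99) in CON and 11.60 to 12.19 (median 12.02) in HIGH. In HIGH the 1 d arrays were all above the -8 d arrays, and in CON 1 of the 4 arrays at 1 d lay within the -8 d range. COX7A2 stood 0.21 above -8 d at 9 d (SE 0.06, adjusted p = 0.0135). It fell by 0.19 between 1 d and 9 d (SE 0.06, adjusted p = 0.0199). The call of this fall was lost without CON at 1 d replicate 3 or 4 (adjusted p = 0.0505 and 0.0734). It was also lost with the 3-day cows alone (adjusted p = 0.229) and after centring on the brightest probe sets (adjusted p = 0.053).

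COX7A1, the heart and muscle form, was at 0.30 at 1 d (SE 0.12, adjusted p = 0.0596). COX7A1 was at 7.09, 7.21, 7.29, 7.31 and 7.60 in the CON arrays at -8 d and at 7.06, 7.11, 7.19, 7.28 and 7.34 in the HIGH arrays. At 1 d COX7A1 was at 7.15, 7.49, 7.51 and 7.62 in CON and ran from 7.20 to 8.29 (median 7.5) in HIGH. At 9 d COX7A1 ran from 7 to 7.73 (median 7.28) in CON while the HIGH arrays ran from 6.93 to 7.42 (median 7.21). Of the HIGH arrays at 1 d, 3 were at 7.76 or higher, 2 of them above 8, and the other 3 lay within the -8 d range. COX7A1 fell by 0.34 between 1 d and 9 d (SE 0.11, adjusted p = 0.0422). That call was lost without any 1 of 13 arrays, among them the muscle-rich array (adjusted p = 0.053) and HIGH at 9 d replicate 2 (adjusted p = 0.0758), with CON at 1 d replicates 1, 2 and 3, HIGH at 1 d replicates 1, 2 and 6, CON at 9 d replicates 1, 4 and 5 and HIGH at 9 d replicates 5 and 6 as the others, and without the cow block (adjusted p = 0.0719). The fall was also not called with the 3-day cows alone (adjusted p = 0.195) or with array quality weights (adjusted p = 0.054). Under both rescalings it did not pass either (adjusted p = 0.0667 and 0.0614). The 1 d call appeared without any 1 of 6 arrays (CON at -8 d replicate 5, CON at 1 d replicate 4, HIGH at 1 d replicates 3, 4 and 5, and CON at 9 d replicate 3).

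In the array rich in muscle markers COX7A1 was at 7.32, COX6A2 at 4.33 and COX8B at 9.67, all within the range of the other arrays. Of the liver forms, COX6A1 rose by 0.18 at 1 d (SE 0.05, adjusted p = 0.00379), while COX8A was at 0.05 (SE 0.05, adjusted p = 0.524) and COX4I1, the form found in most tissues, at 0.09 (SE 0.04, adjusted p = 0.0626). COX6A2 was the dimmest member, with a mean of 4.26 over all arrays, and changed by -0.11 (SE 0.07, adjusted p = 0.242). COX8B, like COX6A2 a muscle form, was at -0.09 (SE 0.04, adjusted p = 0.0974), and it passed under both rescalings (adjusted p = 0.0128 and 0.0208) and with the mean of its probe sets (-0.17, adjusted p = 0.00058). Leaving out HIGH at 1 d replicate 3 brought both COX4I1 and COX8B past the threshold (adjusted p = 0.0256 and 0.0439), and CON at -8 d replicate 2 and CON at 1 d replicate 2 did so for COX4I1.

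NDUFA4, once counted with complex I and now placed with complex IV, had the highest mean of all members, 13.08, and rose by 0.15 at 1 d (SE 0.03, adjusted p = 0.000619). Its paralogue NDUFA4L2 had a mean of 5.47, below the median of all probe sets of 5.9, and was at -0.02 (SE 0.05, adjusted p = 0.862). COX6C rose by 0.22 at 1 d (SE 0.04, adjusted p = 0.000471) and stood at 0.13 at 9 d (SE 0.04, adjusted p = 0.0387), the latter a call lost without any 1 of 14 arrays of -8 d or 9 d (adjusted p up to 0.0756): CON at -8 d replicates 2, 3 and 5, HIGH at -8 d replicates 2 to 5, CON at 9 d replicates 1, 2, 3 and 5, and HIGH at 9 d replicates 1, 3 and 4. With the mean of its probe sets COX6C was at 0.006 at 1 d (adjusted p = 0.957) and at -0.02 at 9 d (adjusted p = 0.826). COX7A2L, which helps complexes III and IV to join, was at -0.07 (SE 0.05, adjusted p = 0.344). COX4I2 and COX6B1 were not analysed here.

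Complex V, the ATP synthase, held genes that moved in opposite directions. ATP5MF, a small membrane subunit, rose by 0.43 at 1 d (SE 0.05, adjusted p = 1.02e-07), a fold of 1.35. Values of ATP5MF at -8 d were 11.56, 11.60, 11.60, 11.61 and 11.61 in CON and 11.48, 11.55, 11.58, 11.59 and 11.60 in HIGH. The ATP5MF values at 1 d were 11.66, 11.89, 12.06 and 12.06 in CON, against a range from 11.99 to 12.25 (median 12.11) in HIGH. By 9 d ATP5MF ranged from 11.62 to 11.74 (median 11.68) in CON, and in HIGH from 11.46 to 11.89 (median 11.68). No 1 d array overlapped the -8 d arrays of its diet, and all 6 HIGH arrays at 1 d lay above the 6 at 9 d. ATP5MF was lower at 9 d than at 1 d by 0.34 (SE 0.04, adjusted p = 3.14e-06) and stood 0.09 above -8 d (SE 0.04, adjusted p = 0.225).

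The c-ring, which turns as protons pass, is built from c-subunits that in mammals are encoded by ATP5MC1, ATP5MC2 and ATP5MC3, with the same mature protein and different import sequences. ATP5MC1 and ATP5MC3 rose from -8 d to 1 d, and ATP5MC2 fell. For ATP5MC1 the CON arrays at -8 d read 11.20, 11.29, 11.30, 11.33 and 11.50 and the HIGH arrays 10.97, 11.10, 11.12, 11.32 and 11.38. In the 1 d arrays ATP5MC1 read 11.28, 11.60, 11.76 and 12.04 in CON and spanned 11.47 to 11.98 (median 11.74) in HIGH. In the 9 d arrays ATP5MC1 spanned 11.33 to 11.54 (median 11.51) in CON and 11.21 to 11.58 (median 11.47) in HIGH. The HIGH groups of -8 d and 1 d did not overlap, while in CON 1 of 4 arrays at 1 d stayed within the -8 d range. ATP5MC1 rose by 0.43 (SE 0.07, adjusted p = 3.27e-05). ATP5MC3 was at 12.48, 12.58, 12.59, 12.61 and 12.63 in the CON arrays at -8 d and at 12.36, 12.40, 12.48, 12.50 and 12.51 in the HIGH arrays. At 1 d ATP5MC3 was at 12.73, 12.78, 12.86 and 13.04 in CON and ran from 12.67 to 12.94 (median 12.86) in HIGH. At 9 d ATP5MC3 ran from 12.57 to 12.78 (median 12.67) in CON while the HIGH arrays ran from 12.47 to 12.77 (median 12.68). In both diets all 1 d values were above all -8 d values. ATP5MC3 rose by 0.33 (SE 0.04, adjusted p = 1.85e-06) in 8 of 8 cows.

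Values of ATP5MC2 at -8 d were 11.48, 11.74, 11.76, 11.83 and 11.92 in CON and 11.58, 11.72, 11.75, 11.77 and 11.82 in HIGH. The ATP5MC2 values at 1 d were 11.46, 11.48, 11.49 and 11.61 in CON, against a range from 11.32 to 11.57 (median 11.44) in HIGH. By 9 d ATP5MC2 ranged from 11.32 to 11.96 (median 11.53) in CON, and in HIGH from 11.51 to 11.75 (median 11.64). In HIGH the 6 arrays at 1 d were all below the 5 at -8 d, and in CON 1 array at -8 d overlapped with those at 1 d. ATP5MC2 fell by 0.27 (log2 fold change -0.27, SE 0.06, adjusted p = 0.000674), in 8 of 8 cows by 0.13 to 0.50. At 9 d it stood at -0.14 against -8 d (SE 0.05, adjusted p = 0.1). That value passed without CON at -8 d replicate 4 or CON at 9 d replicate 2 (adjusted p = 0.0455 and 0.0122). ATP5MC3 was 0.14 above -8 d at 9 d (SE 0.04, adjusted p = 0.0203). ATP5MC1 stood at 0.20 at 9 d (SE 0.07, adjusted p = 0.0519), which was past the threshold without any 1 of 10 arrays, with the smallest p without CON at 1 d replicate 1 or 4 (adjusted p = 0.0232 and 0.0263). The others were CON at -8 d replicate 3, HIGH at -8 d replicates 2 and 5, HIGH at 1 d replicates 4 and 5, CON at 9 d replicates 2 and 3, and HIGH at 9 d replicate 2. Between 1 d and 9 d ATP5MC1 fell by 0.23 (SE 0.07, adjusted p = 0.018). That call was lost without CON at 1 d replicate 4 (adjusted p = 0.0807) and with the 3-day cows alone (adjusted p = 0.125).

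The F1 head makes the ATP. Its catalytic subunit beta, ATP5F1B, rose by 0.34 at 1 d (SE 0.06, adjusted p = 4.8e-05), and alpha, ATP5F1A, by 0.27 (SE 0.05, adjusted p = 4.84e-05). For ATP5F1B the CON arrays at -8 d read 11.94, 12.04, 12.08, 12.14 and 12.27 and the HIGH arrays 12, 12.11, 12.13, 12.20 and 12.26. In the 1 d arrays ATP5F1B read 12.42, 12.51, 12.64 and 12.70 in CON and spanned 12.27 to 12.59 (median 12.32) in HIGH. In the 9 d arrays ATP5F1B spanned 12.14 to 12.46 (median 12.43) in CON and 12.07 to 12.59 (median 12.45) in HIGH. In both diets the 1 d arrays were above all -8 d arrays. ATP5F1A was at 12.09, 12.17, 12.20, 12.24 and 12.24 in the CON arrays at -8 d and at 11.98, 12.07, 12.11, 12.16 and 12.17 in the HIGH arrays. At 1 d ATP5F1A was at 12.28, 12.41, 12.52 and 12.73 in CON and ran from 12.30 to 12.50 (median 12.35) in HIGH. At 9 d ATP5F1A ran from 12.29 to 12.50 (median 12.39) in CON while the HIGH arrays ran from 12.13 to 12.46 (median 12.27). Here too no 1 d array overlapped the -8 d arrays of its diet. ATP5F1B stood 0.27 above -8 d at 9 d (SE 0.05, adjusted p = 0.000817) and ATP5F1A 0.19 (SE 0.04, adjusted p = 0.00431), each in 10 of 10 cows. With the mean of its probe sets ATP5F1A stood at 0.09 at 1 d (adjusted p = 0.0319) and at 0.03 at 9 d (adjusted p = 0.541). Neither passed between 1 d and 9 d (adjusted p = 0.504 and 0.215). ATP5IF1, which inhibits the enzyme when the proton gradient fails, was at -0.07 at 1 d (SE 0.04, adjusted p = 0.208).

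The 4 genes of the peripheral stalk, which holds the head still, all fell between 1 d and 9 d, by 0.11 to 0.20 (ATP5PF -0.20, ATP5PB -0.15, ATP5PO -0.13 and ATP5PD -0.11). At 1 d ATP5PF was 0.27 (SE 0.04, adjusted p = 2.23e-05) and ATP5PB 0.23 (SE 0.04, adjusted p = 3.71e-05) above -8 d, while ATP5PO and ATP5PD were at 0.07 and 0.05 (adjusted p = 0.226 and 0.24). The stalk genes were singled out after their values were seen.

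The 4 assembly factors NDUFAF3, NDUFAF5, NDUFAF6 and NDUFAF8, which help to build complex I and are not part of it, had changes of -0.03 to 0.14 at 1 d. They were also dimmer, with a median level of 7.80 against 10.7 for the genes of complex I, though levels of different probe sets are not comparable. No assembly factor of this group passed in any of the 3 comparisons of days.

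Within CON, 12 members rose and 1, SDHC, fell from -8 d to 1 d, where 4.8% of all genes rose and 3.23% fell. Within HIGH, 40 rose and 2, ATP5MC2 and SDHC, fell, where 12.8% rose and 8.78% fell. All complex III genes were above 0 in both diets, and SDHC and ATP5MC2 were below 0 in both. Across the 85 members the changes of the diets, which share no arrays, had a Pearson correlation of 0.69, with 63 members above 0 in both diets, 8 below 0 in both and 14 of opposite sign. The estimate, with its sign, was larger in HIGH for 62 of the 85 members, where it was so for 51.2% of all genes. At -8 d 19 members were higher in HIGH than in CON (median -0.05), beside 48.1% of all genes. At 1 d 52 were (median 0.02), beside 50.4%. From -8 d to 9 d the estimate was larger in HIGH for 66 members, beside 58.1% of all genes. The changes to 1 d and to 9 d share the -8 d arrays. For the correlation and the counts of members above 0, below 0 or of opposite sign in the diets no value over all genes is given here. UQCRB rose by 0.56 in CON (SE 0.10) and by 0.82 in HIGH (SE 0.09), ATP5MF by 0.32 (SE 0.07) and 0.55 (SE 0.06), and ATP5F1B by 0.46 (SE 0.08) and 0.22 (SE 0.07). With the 3-day cows alone 1 member rose in CON, and with cow as a fixed block 7 did. The count in CON was 7 without CON at 1 d replicate 3 or replicate 4 and 19 without CON at 1 d replicate 1. In HIGH 25 rose after centring on the brightest probe sets. The call of SDHC in CON, at an adjusted p of 0.0492, was lost without any 1 of 25 of the 32 arrays (adjusted p up to 0.211) and kept without CON at -8 d replicates 1 and 5, HIGH at 1 d replicates 5 and 6, CON at 9 d replicates 2 and 5 and HIGH at 9 d replicate 1. The CON call of SDHC was also lost without the cow block (adjusted p = 0.104) and with the 3-day cows alone (adjusted p = 0.122). The same held without the variance trend, with array quality weights and after a second quantile normalisation (adjusted p = 0.0587, 0.0537 and 0.0648). In HIGH the SDHC call was lost without HIGH at -8 d replicates 1 or 3 or HIGH at 1 d replicates 4 or 6 (adjusted p up to 0.0605). It was also lost there without the cow block (adjusted p = 0.061).

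**Figure D4:**
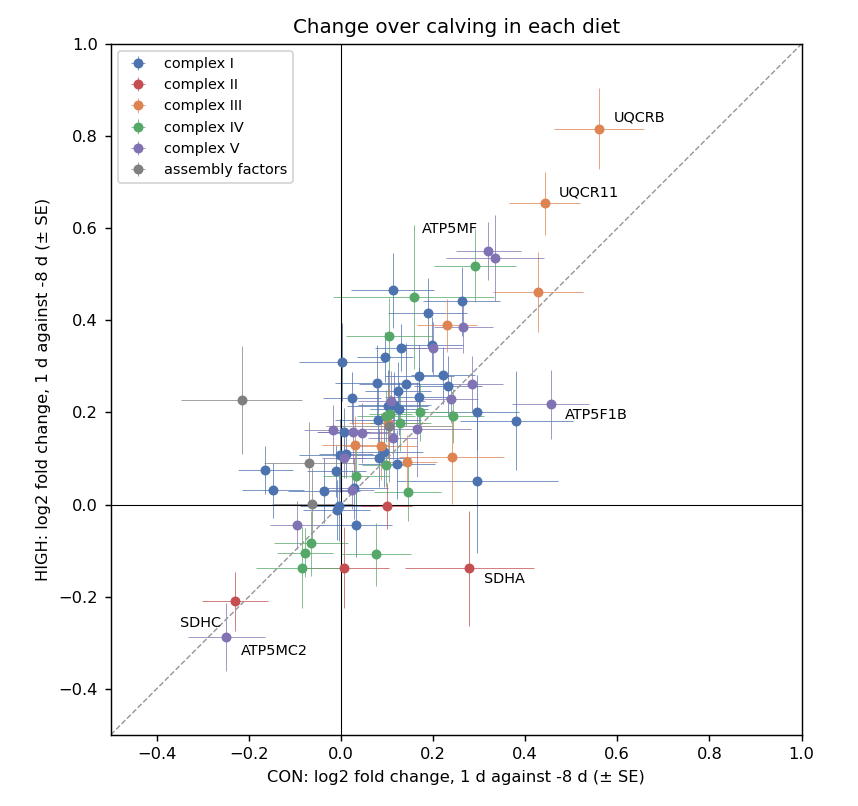
Log2 fold change of each member from -8 d to 1 d in CON (horizontal axis) and in HIGH (vertical axis), with SE bars, coloured by complex; the dashed line marks equal change. Most points lie above 0 in both diets, 62 of the 85 are above the dashed line, and ATP5F1B and SDHA are among those below it.

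A test of the difference itself, the diet by time term of limma, found none of the 85 members at 1 d, nor at 9 d, and 0% of all genes; 12 and 1 members had an unadjusted p under 0.05, where 7.57% and 2.91% of all genes had. The smallest p at 1 d were those of 3 accessory subunits of complex I, NDUFA1 at 0.24 (SE 0.08, adjusted p = 0.579), NDUFA7 at 0.35 (SE 0.12, adjusted p = 0.579) and NDUFB7 at 0.23 (SE 0.08, adjusted p = 0.579), all above 0 as HIGH minus CON. NDUFA1 moved opposite ways, by 0.07 in HIGH (SE 0.05), and it was lower at 1 d in 3 of 3 CON cows. Between the diets on a single day no member passed in limma. At -8 d 2 members had an unadjusted p under 0.05, NDUFB9 at -0.13 and NDUFB4 at -0.21 (HIGH minus CON, adjusted p = 1.0 for both), where 4.29% of all genes had such a p. At 1 d there were 6, led by NDUFB7 at 0.19 (SE 0.06), NDUFA1 at 0.18 (SE 0.06) and ATP5MF at 0.20 (SE 0.07), with adjusted p of 0.44, 0.44 and 0.465, and 0.0109% of all genes were higher in HIGH. An unadjusted p under 0.05 was found at 1 d for 8.25% of all genes, so that the 6 members were no larger a share. At 9 d there were none, and the smallest p was that of ATP5F1A at -0.11 (SE 0.06, adjusted p = 0.998). A median SE of 0.07 to 0.10 for these terms sets what size of difference could be seen.

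At 9 d against -8 d, 1 member rose and 1 fell in CON (1.65% and 1% of all genes), ATP5F1B and NDUFS5, and 5 rose and none fell in HIGH (3.87% and 1.26%), namely UQCRB, CYC1, NDUFV2, COX7A2 and ATP5F1B. Both rescalings of the arrays gave 0 rising members and 1 falling member in CON. From 1 d to 9 d, 3 members fell and none rose in CON (2.01% and 1.58% of all genes), namely UQCR11, NDUFB9 and NDUFB11, and 21 fell and 1 rose in HIGH (6.31% and 6.01%). Without the muscle-rich array the CON counts were 0 that rose at 9 d against -8 d and 1 that fell between 1 d and 9 d, and the HIGH counts stayed at 5 and 21. Without HIGH at 9 d replicate 2, 11 fell in HIGH and 5 in CON between 1 d and 9 d. Other single arrays moved these small counts too. ATP5F1B in CON was lost without any CON array at -8 d, HIGH at -8 d replicates 3, 4 or 5, CON at 9 d replicates 1 to 4, or HIGH at 9 d replicate 6, and without CON at 1 d replicate 4 there were 3. NDUFS5 in CON was lost without CON at -8 d replicates 2 to 5 or CON at 9 d replicates 1, 3, 4, 5 or 6. It was also lost without the cow block, with cow as a fixed block and with the 3-day cows alone (adjusted p = 0.0745, 0.053 and 0.565). The 5 in HIGH became 1 to 3 without HIGH at -8 d replicates 1, 3, 4 or 5 or HIGH at 9 d replicates 1, 3 or 5. The 3 in CON became 1 without CON at 1 d replicates 3 or 4 or CON at 9 d replicates 3 or 4, and 5 or 6 without CON at 1 d replicate 1 or HIGH at 1 d replicate 3. The 21 in HIGH became 12 or 13 without HIGH at 1 d replicates 3, 5 or 6 or HIGH at 9 d replicate 6.

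Cow by cow, 18 of the 85 members were higher at 1 d than at -8 d in all 8 cows with both days, and ATP5MC2 and SDHC were lower in all 8, where 7.6% of all genes were higher and 5.47% lower in every cow. The 18 came from complexes I, III, IV and V: UQCRB, UQCR11, UQCR10, CYC1 and UQCRFS1, ATP5F1A, ATP5F1B, ATP5MC3, ATP5MF, ATP5MG, ATP5PB and ATP5PF, COX6C and NDUFA4, and NDUFA6, NDUFB3, NDUFC1 and NDUFS3. At 9 d 7 members were higher than at -8 d in all 10 cows with both days (ATP5F1A, ATP5F1B, COX5A, NDUFA7, NDUFV2, UQCRB and UQCRFS1) and NDUFS5 and SDHC were lower in all 10, beside 4.75% and 2.53% of all genes. Between 1 d and 9 d 5 members were lower in all 10 cows, namely UQCR11, UQCR10, UQCRB, NDUFB9 and NDUFB11, and none was higher in all, beside 3.83% and 3.09% of all genes. From -8 d to 1 d ATP5PD, NDUFA1, NDUFAB1 and NDUFC2 were lower in 3 of 3 CON cows and higher in 5 of 5 HIGH cows, where 0.918% of all genes moved opposite ways in the cows of the diets. No member did so at 9 d against -8 d or at 9 d against 1 d, where 0.0765% and 0.0328% of all genes did. The mean over all 85 members changed by between 0.00 and 0.30 from -8 d to 1 d in these 8 cows, with a median of 0.13.

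For 22 members the array carries several probe sets, and the others among them were not always in step with the one used. NDUFB2, an accessory subunit of complex I, had 2 probe sets of nearly equal mean, 10.73 and 10.67, that moved apart. Values of NDUFB2 at -8 d were 10.60, 10.67, 10.72, 10.74 and 10.79 in CON and 10.48, 10.49, 10.56, 10.61 and 10.74 in HIGH. The NDUFB2 values at 1 d were 10.77, 10.85, 10.91 and 11.05 in CON, against a range from 10.73 to 11.26 (median 11.01) in HIGH. By 9 d NDUFB2 ranged from 10.50 to 10.73 (median 10.62) in CON, and in HIGH from 10.48 to 10.77 (median 10.63). In each diet 1 array at 1 d lay within the -8 d range and the rest above it. The probe set used rose by 0.30 (SE 0.06, adjusted p = 0.000219), and the other fell by 0.18 (log2 fold change -0.18, SE 0.06, adjusted p = 0.022). NDUFA5, another accessory subunit, was at -0.01 (SE 0.05, adjusted p = 0.914) by the probe set used and at 0.44 (SE 0.07, adjusted p = 3.22e-05) by its second, of mean 9.23. For ATP5MG, a membrane subunit of complex V, the second probe set was at -0.13 (adjusted p = 0.0524) where the first rose by 0.13 (adjusted p = 0.00972), and it rose by 0.19 between 1 d and 9 d (adjusted p = 0.00535). The second probe set of COX8B, of mean 6.39, fell by 0.24 at 1 d (log2 fold change -0.24, adjusted p = 0.00365). NDUFB2 was the only member whose probe sets passed in opposite directions at 1 d. Of the 25 other probe sets 17 had a mean under 6, and 4 rose and 2 fell at 1 d. Which parts of the transcripts these probe sets match was not tested, and these genes were singled out after their values were seen.

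**Figure D5:**
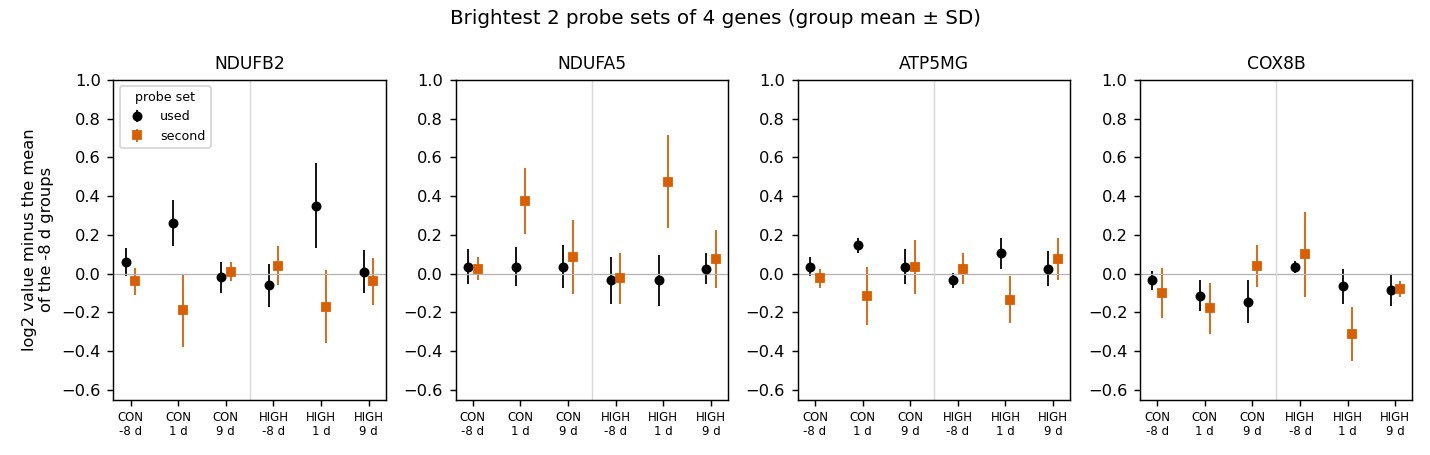
Log2 values of the 2 brightest probe sets of NDUFB2, NDUFA5, ATP5MG and COX8B, as group mean ± SD after subtracting the mean of the -8 d groups; black circles are the probe set used and orange squares the second. At 1 d the 2 probe sets of NDUFB2 lie on opposite sides of 0 in both diets, and the second of NDUFA5 is above 0 while the first stays near it.

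The lists that follow hold other genes of mitochondrial respiration, read against 16.5% of all genes that rose and 12.3% that fell at 1 d. For counts at 9 d against -8 d the shares over all genes were 7.79% that rose and 5.08% that fell. Of 9 measured mitochondrial carriers and pores, for ADP, phosphate and acylcarnitine among others, 4 rose at 1 d and none fell, led by SLC25A4, an ADP/ATP translocase (0.42, adjusted p = 7.69e-06), and SLC25A3, the phosphate carrier (0.51, adjusted p = 9.94e-06). SLC25A4 stood at 0.36 at 9 d (adjusted p = 9.98e-05), and SLC25A3 fell by 0.34 between 1 d and 9 d (adjusted p = 0.00132). Of 21 measured assembly factors of complexes II to V 6 rose at 1 d and none fell, such as COX15, which makes heme A for complex IV, at 0.66 (adjusted p = 0.000611), and 3 rose at 9 d against -8 d. Of 6 other assembly factors of complex I, 2 rose at 1 d and 2 at 9 d.

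Of 9 measured regulators of mitochondrial biogenesis, PPARGC1A, a coactivator of mitochondrial genes, rose by 0.80 at 1 d (adjusted p = 9.54e-05) and 0.75 at 9 d (adjusted p = 0.000295), and POLG, the mitochondrial DNA polymerase, by 0.25 at 1 d (adjusted p = 0.00168). The other 7 did not pass at 1 d. Of 15 genes of general mitochondrial structure, 6 rose and 1 fell at 1 d, with PHB1, a prohibitin of the inner membrane, at 0.47 (adjusted p = 0.00025), and 6 rose at 9 d. Genes listed under electron carriers and coenzyme Q passed in 1 of 9 cases at 1 d. Other routes of electron entry passed in 1 of 7, SUOX, sulphite oxidase, at 0.43 (adjusted p = 3.34e-05). At 9 d the electron transfer flavoproteins ETFA and ETFB were 0.16 and 0.17 above -8 d (adjusted p = 0.0218 and 0.0383). The medians of these lists at 1 d were 0.24 for the mitochondrial carriers and pores and 0.16 for mitochondrial structure. Assembly factors had medians of 0.10 for complexes II to V and 0.09 for complex I. Further medians were 0.08 for electron carriers and coenzyme Q, 0.03 for the regulators and -0.05 for other electron entry. The median of the members was 0.14 and that of all genes 0.00. None of 13 listed genes of mitochondrial DNA had a named probe set here, so that the subunits made inside the mitochondrion were not analysed.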

How the data were processed

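Liver RNA of 12 cows was hybridised to Affymetrix bovine arrays, and 32 arrays were used. The deposited values are log2 expression values per probe set that the authors made with RMA in Expression Console 1.1, per the submitters' processing notes. Arrays have no read depth, and their number limits the precision. Probe sets were named through the platform annotation: 13292 of 24016 had 1 symbol, 86 several and 10638 none here. No second normalization was applied.

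A model with 6 diet-by-day groups was fitted to all probe sets with limma 3.58.1 in R 4.3.3, with the cow entered as a random block (estimated correlation 0.138), moderated variances with a trend and 26 residual degrees of freedom. Tests were two-sided, adjusted by Benjamini-Hochberg over all probe sets, with a threshold of 0.05. Deviations from the group means correlated between 2 days of a cow at a mean of 0.323 (28 pairs, 0.229 to 0.464), beside -0.0638 for other cows of the same diet (142 pairs), and the labels name the cow. The fit was tested on simulated data. Per gene the probe set with the highest mean was used. Members followed by name through the alternatives below included those with the smallest p per complex in each comparison of days. How many were taken per complex differed between these comparisons. For the diet contrasts they were those with the 3 smallest p over all members. Also followed were complex II, the core genes of complex I, the c-ring, the tissue forms of complex IV and further members chosen by role. Within a diet only the falls of SDHC, ATP5MC2 and NDUFS5 from before calving and the rise of SDHB after it were followed. At most 3 examples per pathway list were named. The members and lists were chosen with earlier results of these data known. Alternatives changed the block, the cows, the variance model, array weights, the filter, the scaling and the probe set choice, and left out each array in turn.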

Additional observations from a re-analysis of the deposited data

Results flagged for a closer look

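Among 156 groups of 4 to 6 arrays (120 of the 20 members given by array and 36 of the means of complexes and assembly factors), 10 had an array whose gap to the nearest other array passed Dixon's critical value for that group size, where chance gives about 1 in 20 groups. No explanation was tested for any of them. UQCR11 was 11.82 in CON at -8 d replicate 4, with the other arrays of that group at 11.94 to 11.97. UQCR10 was 11.67 in HIGH at 9 d replicate 2, with the others at 11.86 to 11.95, and ATP5MC1 was 11.21 on the same array, with the others at 11.45 to 11.58. ATP5MF was 11.56 in CON at -8 d replicate 3, with the others at 11.60 to 11.61. ATP5F1B was 12.59 in HIGH at 1 d replicate 5, above the others at 12.27 to 12.36, and 12.14 in CON at 9 d replicate 5, below the others at 12.37 to 12.46. SDHA was 11.24 in HIGH at 9 d replicate 4, with the others at 11.89 to 12.11, and SDHB was 11.70 in HIGH at -8 d replicate 3, with the others at 11.93 to 12.01. NDUFA6 was 11.24 in CON at -8 d replicate 5, with the others at 11.28 to 11.29. NDUFV2 was 11.40 in CON at 9 d replicate 3, with the others at 11.52 to 11.58. HIGH at 9 d replicate 2, which holds 2 of these values, is the array with the second highest mean of muscle markers. In 255 comparisons of the change within cows, over all 85 members and 3 pairs of days, 4 members moved one way in every CON cow and the other way in every HIGH cow, all from -8 d to 1 d, with 3 CON cows lower and 5 HIGH cows higher. The mean change of the HIGH cows minus that of the CON cows was 0.29 for NDUFA1, 0.22 for NDUFC2, 0.16 for NDUFAB1 and 0.13 for ATP5PD. The diet by time term of limma, over all arrays, had adjusted p of 0.579, 0.725, 0.834 and 0.801 for these genes.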

How the results depend on the processing

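Of 52 named values past the threshold, 33 stayed past it under the 9 alternatives and without any single array. With the mean of each gene's probe sets COX6C at 9 d against -8 d turned to -0.024 and COX8B between 1 d and 9 d to 0.098. From -8 d to 1 d 39 rose; the 3-day cows alone gave 26, centring 30, a second quantile normalisation 32 and single arrays 35 to 44, and 4 fell after centring. At 9 d against -8 d, 9 rose; the 3-day cows alone gave 5, array weights 19, the filter on a mean of at least 6 gave 17, and single arrays 7 to 14. The 2 that fell became 1, 4 and 4 under those settings. Between 1 d and 9 d, 1 rose in the main model, 0 without the cow block, with the 3-day cows or with weights, and 2 with cow as a fixed block, the filter or the mean of probe sets. There 25 fell, 10 with the 3-day cows and 19 to 31 without single arrays. Within CON, 12 rose at 1 d, 7 with the fixed cow block, 1 with the 3-day cows, 19 with the filter and 7 to 19 without single arrays. The 1 that rose at 9 d became 0 without the block, with the 3-day cows, without the trend, under both rescalings and with the mean of probe sets, 2 with weights and 3 with the filter. The 3 that fell between 1 d and 9 d became 1 without the block, with the fixed block or under both rescalings, 0 with the 3-day cows, 6 with weights or the mean of probe sets and 9 with the filter. Within HIGH, 40 rose at 1 d, 25 after centring and 30 to 43 without single arrays. The 5 that rose at 9 d became 3 without the block, with the 3-day cows or under both rescalings, and 12 with weights, and 1 to 7 without single arrays. The 21 that fell between 1 d and 9 d became 12 without the block, 13 with the 3-day cows, 11 after centring and 11 to 22 without single arrays. The diet contrasts gave 0 under every alternative run, and with cow as a fixed block those on a single day could not be fitted. The 3-day setting held fewer cows and the filter fewer probe sets. The cause of these shifts was not tested. Small numbers of arrays, dim members such as COX6A2 and NDUFA4L2, and neutrophil markers and RNA end controls that moved with the day limit what the 1 d values show.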
